A study of Mus musculus with 6 samples.

Results

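Vascular growth factors and vasoactive peptides, some of them known to respond to low oxygen, were examined in MS-5 cells with and without leukaemic cells. The set was a list of 10 genes, taken by name out of 35968 genes with a transcript in the files: the VEGF ligands Vegfa, Vegfb, Vegfc, Vegfd and Pgf, the VEGF receptor Flt1, and the secreted factors Adm, Angpt2, Angptl4 and Edn1. Of these, 8 were among the 13221 genes that passed the filter on low counts, and Pgf and Edn1 did not pass it. MS-5 is a mouse bone marrow stromal cell line and SKM-1 a human acute myeloid leukaemia (AML) line. The RNA-seq data comprise 3 libraries from MS-5 cultured without other cells (MS-5 only, MO1 to MO3) and 3 from MS-5 taken out of a co-culture with SKM-1 of 24 hr (MC1 to MC3). In the co-cultures, SKM-1 cells were seeded onto a confluent MS-5 layer at 4 AML cells per stromal cell and 750000 AML cells per ml, and both groups were kept in the same RPMI medium with serum. Attached SKM-1 cells were taken off by a PBS wash and a mild trypsin step before the stromal cells were collected, so that both groups rest on the same cell line and the removal of the human cells was physical.

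VEGF ligands are secreted proteins that bind receptor tyrosine kinases on endothelial cells, and Vegfa is the main signal for the sprouting of blood vessels. Its transcription is raised by hypoxia-inducible factors, which bind short response elements in DNA when oxygen is low, and Adm, Angptl4, Edn1 and Flt1 are also known targets. Bone marrow stromal cells are a source of such factors for the vessels of the marrow.

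Vegfa is spliced into proteins of different length that differ in how tightly they hold to heparan sulphate outside the cell. The gene lies at chr17:46016993-46032369 on the minus strand (GRCm38). The coding sequence of its 4 protein-coding transcripts with a count is shown here from the shared exon before the alternative ones to the last codon before the stop, since the transcript results turn on the exons in between. Capitals mark the alternative coding exons, one of 72 bases (chr17:46022277-46022348) and another of 132 bases (chr17:46020991-46021122).
Vegfa-201: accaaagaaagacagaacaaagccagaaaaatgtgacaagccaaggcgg
Vegfa-203: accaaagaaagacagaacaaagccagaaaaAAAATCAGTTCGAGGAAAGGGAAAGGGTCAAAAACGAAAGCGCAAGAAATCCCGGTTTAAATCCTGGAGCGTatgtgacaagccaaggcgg
Vegfa-202: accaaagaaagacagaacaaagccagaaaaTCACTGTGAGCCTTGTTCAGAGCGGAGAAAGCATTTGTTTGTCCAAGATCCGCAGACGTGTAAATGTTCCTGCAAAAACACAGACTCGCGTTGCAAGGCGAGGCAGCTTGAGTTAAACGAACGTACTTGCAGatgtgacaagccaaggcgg
Vegfa-207: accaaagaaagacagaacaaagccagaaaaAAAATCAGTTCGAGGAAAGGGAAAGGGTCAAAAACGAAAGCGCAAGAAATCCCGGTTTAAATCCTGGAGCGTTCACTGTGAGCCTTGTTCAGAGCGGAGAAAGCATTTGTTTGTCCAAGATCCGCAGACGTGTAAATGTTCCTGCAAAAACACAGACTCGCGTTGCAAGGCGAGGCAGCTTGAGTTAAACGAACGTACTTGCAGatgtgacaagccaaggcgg
Vegfa-201, which lacks both exons, codes for the freely diffusible form of 120 residues. Vegfa-203 has the shorter exon (144 residues), Vegfa-202 the longer exon (164 residues, the form that binds heparin), and Vegfa-207 has both (188 residues, the form held most tightly to the matrix). These lengths exclude the signal peptide.

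Libraries MO2 and MC3 stood apart from the other 4 before any comparison. Transcripts with a retained intron held 3.39% and 3.42% of their estimated counts, against 1.49% to 1.64% in the others, and mitochondrial genes held 6.07% and 5.92%, against 10.6% to 13.2%. Each library had between 23978881 and 35694987 estimated counts. The stromal markers summed to between 6218 and 8090 CPM (counts scaled to library size, normalized by TMM) in MS-5 only and between 8187 and 9412 in co-culture, with 9 of 10 markers tested, none of them called by edgeR, and Nt5e near 0. The 10 endothelial markers summed to 1.63 to 2.48 CPM and 2.97 to 9.30 CPM, with Sox17 at 0 throughout, while the 12 leukocyte markers summed to 32.8 to 36.9 CPM in MS-5 only and to 86.7, 361 and 87.0 CPM in MC1, MC2 and MC3. Of the 11 leukocyte markers tested, 7 were called higher by edgeR, beside 3.71% of all genes. These 7 were at no more than 0.541 CPM in an MS-5 only library and most passed the filter on low counts only through co-culture, so their count is a description. The sum was highest in MC2.

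Adm rose 1.77-fold in co-culture and was the only member past the threshold, an adjusted p of 0.1 in edgeR's quasi-likelihood test. Vegfa was 2.14-fold higher with a wider spread and did not pass it, and the other 6 members tested had log2 fold changes between -0.31 and 0.18. Over all genes tested, 4.38% were called in either direction, 3.71% higher and 0.666% lower, and 1 of the 8 members tested was called. All co-culture libraries lay above all MS-5 only libraries in CPM for 2 of the 8, Vegfa and Adm, and below them for 0 of the 8, against 11.6% and 9.6% of all genes (21.2% in either direction). The plot of levels by library shows these 2 genes, and the barely detected Edn1, with no overlap between groups. In these bulk samples, a change in RNA per cell and a change in which cells were present cannot be told apart.

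**Figure D1:**
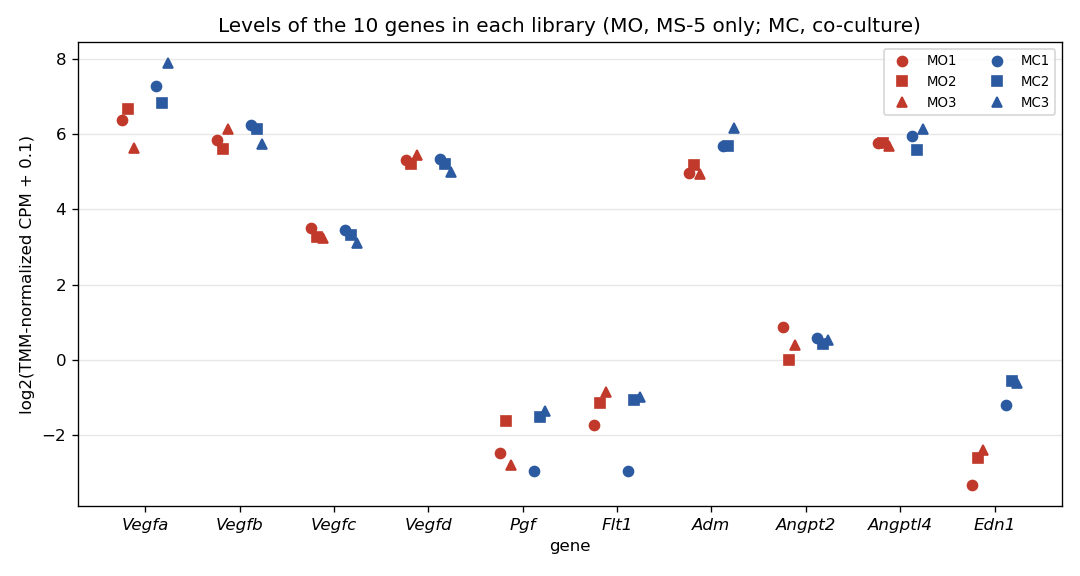
Level of each of the 10 genes in each library, as log2 of TMM-normalized CPM with a small constant added so that 0 can be drawn. Red symbols are MS-5 only (MO) and blue symbols co-culture (MC), and each symbol is a library. The blue symbols of Vegfa, Adm and Edn1 all lie above the red ones, while those of the other 7 genes overlap.

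Vegfa, the ligand of the receptors Flt1 and Kdr, was measured at 83.1, 102 and 49.7 CPM in MO1, MO2 and MO3 and at 154, 113 and 234 CPM in MC1, MC2 and MC3. The lowest co-culture library, MC2, was close to the highest MS-5 only library, MO2. The group means were 78.1 ± 26.3 and 167 ± 61.6 CPM (SD, n = 3 each), a log2 fold change of 1.10 (SE 0.35, edgeR unadjusted p = 0.0186, adjusted p = 0.209). The difference did not pass the threshold. It was of like size within libraries of the same kind, with MC3 at 2.31 times MO2 and the mean of MC1 and MC2 at 2.02 times the mean of MO1 and MO3. With a covariate for MO2 and MC3 the adjusted p was 0.0218 in edgeR, in a fit where 13.9% of all genes were called higher and 16.4% lower, and with DESeq2 it was 0.0486, where 6.9% of all genes were called higher and 2.72% lower. Without MO2 and MC3 it was 0.102, with a log2 fold change of 1.03. In edgeR the adjusted p was 0.361 with library size in place of TMM and 0.434 with an effective length offset. With limma on log2 TPM it was 0.862 to 0.873 over 3 pseudocounts. With each library left out in turn it was 0.152 to 0.478 in edgeR (log2 fold change 0.78 to 1.33).

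Adm codes for adrenomedullin, a peptide that widens blood vessels and supports endothelial survival, and lies at chr7:110627661-110629820 on the plus strand. It was measured at 31.1, 36.1 and 30.7 CPM in MS-5 only and at 51.0, 51.3 and 70.9 CPM in co-culture. In CPM the MS-5 only libraries lay close together and the co-culture libraries all lay above them, with MC3 the highest. In TPM the groups overlapped, at 27.9, 53.1 and 27.1 TPM and then 47.1, 44.6 and 105 TPM, with MO2 above MC1 and MC2. The means were 32.6 ± 3.03 and 57.7 ± 11.4 CPM (SD, n = 3 each), a log2 fold change of 0.82 (SE 0.18, edgeR adjusted p = 0.0865). MC3 was 1.96 times MO2, and the mean of MC1 and MC2 was 1.66 times that of MO1 and MO3. The call was lost when any of the 6 libraries was left out (edgeR adjusted p from 0.114 to 0.305, log2 fold change 0.65 to 0.90). Without MO1, MO2 or MO3 the hypoxia-inducible gene Bnip3 was not called either (edgeR adjusted p = 0.202, 0.136 and 0.224). Bnip3 was called in the 3 fits without a co-culture library. The share of all genes called with a library left out is not given here. The Adm call was also lost when only protein-coding transcripts were counted (adjusted p = 0.148). It remained without MO2 and MC3 together (adjusted p = 0.0770), in a fit where 8.33% of all genes were called higher and 4.71% lower. The call was also lost with library size in place of TMM (edgeR adjusted p = 0.257), with an effective length offset (0.108) and with limma on log2 TPM (0.675 to 0.686 over 3 pseudocounts). It held with DESeq2 (adjusted p = 0.0022), where 6.9% of all genes were called higher and 2.72% lower. It also held in edgeR with the covariate for MO2 and MC3 (0.0104), where 13.9% were called higher and 16.4% lower.

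In MC2, the library with the highest leukocyte marker sum, Vegfa was at 113 CPM and Adm at 51.3 CPM. Whether RNA of other cells took part was not tested. The excess of MC2 over the MS-5 only mean, divided by that of MC1 and MC3, was 0.303 for Vegfa and 0.660 for Adm. This ratio takes in MO2 and MC3, the libraries that stood apart. Over the 6 libraries, log2 CPM of Adm and Vegfa had a Pearson correlation of 0.92, that of Angptl4 and Vegfa 0.78, and that of Vegfd and Vegfa -0.79. These are descriptions over 6 libraries that share their group and the state of MO2 and MC3.

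The stretch before the RefSeq start of Adm is shown because Adm was the member called (chr7:110627407-110627656, plus strand, GRCm38.p6, the 250 bases before the start). Capitals mark CACGC, the reverse complement of GCGTG, which with ACGTG was searched on both strands as the core of the hypoxia response element.
Adm promoter: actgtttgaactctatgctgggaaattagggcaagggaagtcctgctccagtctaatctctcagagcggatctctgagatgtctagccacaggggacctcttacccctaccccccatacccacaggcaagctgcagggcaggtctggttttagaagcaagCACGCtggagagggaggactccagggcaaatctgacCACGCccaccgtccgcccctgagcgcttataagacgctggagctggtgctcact
The cores start 90 and 54 bases before the start. Promoter windows from RefSeq matched 8 of the 10 genes, and Angpt2 and Angptl4 had no entry. A core was present in windows of Adm, Vegfb, Flt1, Pgf and Vegfa, where it lay in a window at an internal start, and in none of Edn1, Vegfc and Vegfd. Of 32851 promoter windows of 250 bases, 38.6% held either core, 28.2% GCGTG and 16.6% ACGTG, so that a match is common and only describes the letters.

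None of the other VEGF ligands passed the test. Vegfb (chr19:6982473-6987651, minus strand), a ligand of Flt1, was at 57.0, 48.4 and 69.7 CPM in MS-5 only and 75.5, 70.2 and 52.9 CPM in co-culture. The groups overlapped, and MC3, the highest co-culture library for Vegfa and Adm, was the lowest for Vegfb. The log2 fold change was 0.18 (SE 0.20, edgeR adjusted p = 0.804). Vegfc (chr8:54077606-54187096, plus strand), a lymphatic growth factor that signals through Flt4, was at 11.2, 9.55 and 9.38 CPM and then 10.9, 9.89 and 8.50 CPM. Vegfd (chrX:164373378-164402650, plus strand), the other lymphatic ligand, was at 39.2, 36.4 and 43.4 CPM and then 40.5, 36.6 and 31.8 CPM. Neither lymphatic ligand separated the groups, with log2 fold changes of -0.04 (SE 0.17) and -0.13 (SE 0.15) and edgeR adjusted p-values of 0.977 and 0.817. Pgf, the placental growth factor that binds Flt1, had 2, 7 and 1 estimated counts in the MS-5 only libraries, with 1, 6 and 10 in those of co-culture, too few to pass the filter. When the filter was lowered to 5 counts in 3 libraries, where 4.04% of genes were called in either direction, its log2 fold change was 0.61 (SE 0.95, edgeR adjusted p = 0.888).

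Levels of different genes can be set side by side per length, in TPM, a unit that divides by transcript length. Vegfb had the highest mean in MS-5 only, 70.6 ± 10.6 TPM (SD, n = 3), followed by Vegfa at 54.3 ± 44.3, Adm at 36.0 ± 14.8, Angptl4 at 35.3 ± 12.1 and Vegfd at 26.9 ± 5.98. Each of these overlapped with the next in order. Vegfc followed at 6.08 ± 2.01 TPM, below all libraries of Vegfd, and Angpt2 at 1.15 ± 0.19, below all libraries of Vegfc. Pgf, Flt1 and Edn1 were under 0.5 TPM in all 6 libraries. In co-culture the mean order was Vegfa (122 ± 106 TPM), Vegfb (78.0 ± 8.41), Adm (65.6 ± 34.3), Angptl4 (43.6 ± 22.3), Vegfd (24.4 ± 4.62), Vegfc (5.39 ± 0.90) and Angpt2 (1.36 ± 0.40), again with overlap between neighbours down to Vegfd. Vegfa was above Vegfb in TPM only in MO2 and MC3 among the 6 libraries, so the higher place of Vegfa in the co-culture mean rested on MC3.

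Vegfa made up 28.4%, 45.9% and 18.7% of the summed TPM of the 5 VEGF ligands in MO1, MO2 and MO3, and 39.9%, 35.2% and 66.5% in MC1, MC2 and MC3. The mean share was 16.2 percentage points higher in co-culture, a difference within the spread between libraries (exact two-sided permutation test, p = 0.3, where 3 against 3 cannot go below 0.1). It ranged from 6.52 points without MC3 to 23.6 points without MO2. Vegfb held most of the rest, from 23.7% in MC3 to 58.0% in MO3.

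In TPM, Vegfa itself did not separate the groups, at 35.1, 105 and 22.8 TPM in MS-5 only and 70.9, 51.3 and 243 TPM in co-culture. MO2 and MC3 were the highest libraries of their groups, and in both a large share lay in retained-intron transcripts. Of 13 annotated Vegfa transcripts 9 had a count, and 5 of these retain an intron and are short, at 463 to 874 bases against 2765 and 3451 bases for Vegfa-201 and Vegfa-202. They held 42.3% of Vegfa TPM in MO2 and 42.6% in MC3, against 7.29% to 12.0% in the other 4 libraries. Of the estimated counts they held only 12.9% and 13.0%, against 1.30% to 2.32%, because TPM divides by length. Vegfa-209 and Vegfa-210 led among them in MO2 (13.8 and 14.2 TPM) and MC3 (33.0 and 28.6 TPM), and Vegfa-205 and Vegfa-208 also passed 5% of the gene's TPM in both. Vegfa-208 held 9.56% in MO3 as well.

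Without them, protein-coding Vegfa was 32.5, 60.5 and 20.1 TPM in MS-5 only and 64.2, 45.5 and 140 TPM in co-culture. MC2 lay below MO2, so the groups still overlapped on this scale, though the lead of MO2 and MC3 was smaller. In edgeR on protein-coding counts alone, the log2 fold change of Vegfa was 1.11 (SE 0.32, adjusted p = 0.207), close to the value from all transcripts.

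**Figure D2:**
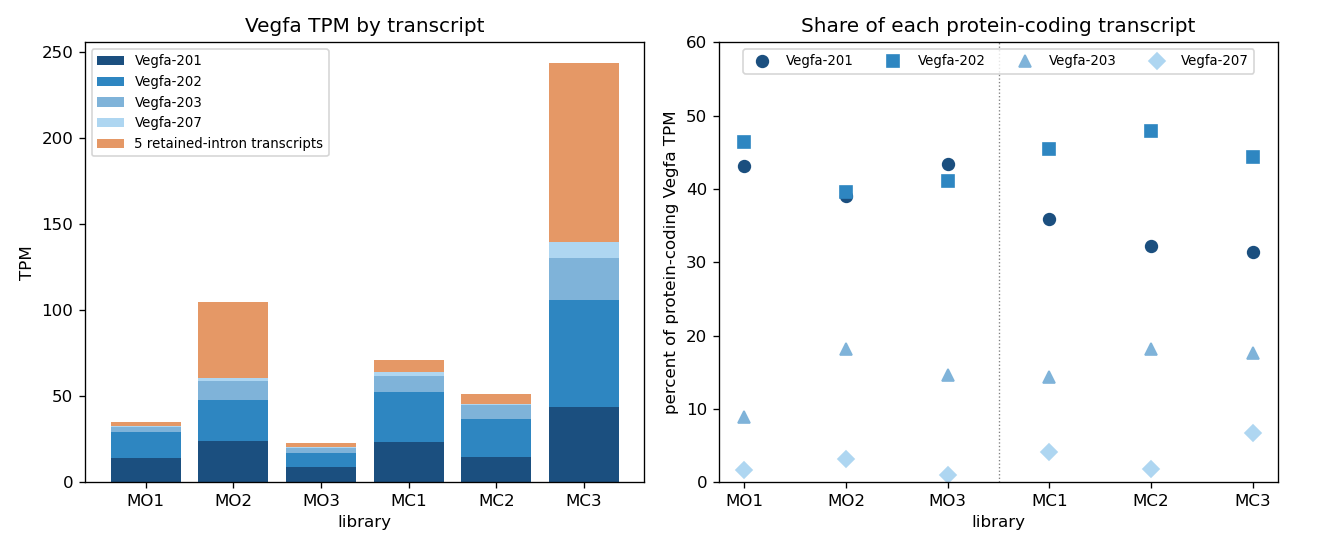
Left, TPM of Vegfa in each library, stacked by transcript, with the 5 retained-intron transcripts summed in orange. Right, the percent of protein-coding Vegfa TPM held by each of 4 transcripts in each library, with MS-5 only to the left of the dotted line. Orange makes up 42.3% of MO2 and 42.6% of MC3, and Vegfa-201 lies at 31.4% to 35.9% in co-culture against 39.1% to 43.4% in MS-5 only.

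Among the protein-coding transcripts, Vegfa-201 and Vegfa-202 held most of the gene's counts. The share of all Vegfa TPM held by Vegfa-202, the transcript with the highest mean, was 43.0%, 22.8% and 36.1% without SKM-1 and 41.1%, 42.5% and 25.4% with it. The mean difference of 2.36 percentage points was within the spread (exact two-sided permutation test, p = 0.7) and turned negative when MO2, MC1 or MC2 was left out (-3.22, -0.03 and -0.72 points).

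Vegfa-201, the transcript of the diffusible form, held 43.1%, 39.1% and 43.4% of protein-coding TPM in MO1 to MO3 and 35.9%, 32.2% and 31.4% in MC1 to MC3. All co-culture libraries thus lay below all MS-5 only libraries, including within MO2 and MC3, with means of 41.9 ± 2.39% and 33.2 ± 2.45% (SD, n = 3 each). Transcripts with the exon of 132 bases, Vegfa-202 and Vegfa-207, together held 48.1%, 42.8% and 42.0%, and then 49.7%, 49.7% and 51.1%. The groups did not overlap for this sum, but they did for each transcript alone. Vegfa-202 held 46.4%, 39.6% and 41.1% and then 45.5%, 47.9% and 44.3%, and Vegfa-207 held 1.64%, 3.18% and 0.946% and then 4.16%, 1.80% and 6.73%. These shares were picked out after their values were seen and are given without a test. They also rest on how Kallisto divides reads between transcripts that share exons, whose uncertainty is not in the values used here. The share of Vegfa-203, which overlapped between groups (8.83%, 18.1% and 14.6%, then 14.4%, 18.1% and 17.6%), rests on 1.03% to 2.29% of the gene's counts at an annotated length of 513 bases.

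The receptors that answer these ligands were hardly present. Flt1 (chr5:147561604-147726011, minus strand), the receptor for Vegfa, Vegfb and Pgf, had 5, 11 and 10 estimated counts without SKM-1 and 1, 9 and 14 with it. Its groups overlapped, with a log2 fold change of -0.31 (SE 0.84, edgeR adjusted p = 0.952), and the value turned to 0.22 without MC1. Kdr, the main signalling receptor for Vegfa, had 0 to 5 counts per library and Flt4 also 0 to 5, and neither was tested. The co-receptors were well measured. Nrp1 was at 69.5, 101 and 80.4 CPM and then 85.0, 97.0 and 119 CPM, and Nrp2 at 256, 343 and 241 CPM and then 217, 200 and 277 CPM. Both overlapped between groups, with log2 fold changes of 0.27 (SE 0.20) and -0.28 (SE 0.21) and edgeR adjusted p-values of 0.650 and 0.658. Of the 5 receptors and co-receptors, 3 were tested and none was called by edgeR at an adjusted p of 0.1 or at an unadjusted p of 0.05, nor by DESeq2. With the covariate for MO2 and MC3, edgeR called Nrp1 higher (adjusted p = 0.0789) and Nrp2 lower (adjusted p = 0.0425), at log2 fold changes of 0.27 and -0.27, in the fit where 13.9% of all genes were called higher and 16.4% lower.

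Angpt2 (chr8:18690263-18741562, minus strand), a ligand of the endothelial receptor Tek that loosens vessels, had 43, 28 and 27 estimated counts and then 46, 30 and 46. Its log2 fold change was 0.06 (SE 0.37, edgeR adjusted p = 0.983), and its sign turned without MO2 (-0.15) and without MO2 and MC3 (-0.13). Angptl4 (chr17:33773750-33781830, minus strand), an inhibitor of lipoprotein lipase, was at 54.0, 54.1 and 51.2 CPM and then 61.6, 48.0 and 69.5 CPM. The MS-5 only libraries were nearly equal and lay inside the range of co-culture, with a log2 fold change of 0.17 (SE 0.16, edgeR adjusted p = 0.762). Of the 8 genes listed for the angiopoietin system, 6 were tested and none was called, with a median log2 fold change of -0.04 against -0.02 over all genes tested.

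Edn1 (chr13:42301476-42307990, plus strand), the vasoconstrictor endothelin-1, had 0, 2 and 2 estimated counts without SKM-1 and 11, 14 and 19 with it. All co-culture libraries were higher, at 0.336, 0.582 and 0.553 CPM against 0 to 0.091, but every value is near the limit of what this depth can count. With a filter of 5 counts in 3 libraries, where 3.48% of genes were called higher, its log2 fold change was 3.14 (SE 0.84, edgeR adjusted p = 0.128). It passed this filter only through the co-culture libraries, where it was high, so the value is a description and supports no test. Its MC2 excess was 1.35 times that of MC1 and MC3. Of the endothelin receptors, Ednra was at 9.14 to 13.2 CPM and 10.9 to 14.8 CPM, and Ednrb had at most 1 count in a library. The 3 tested genes of the 7 listed for this system had no call.

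**Figure D3:**
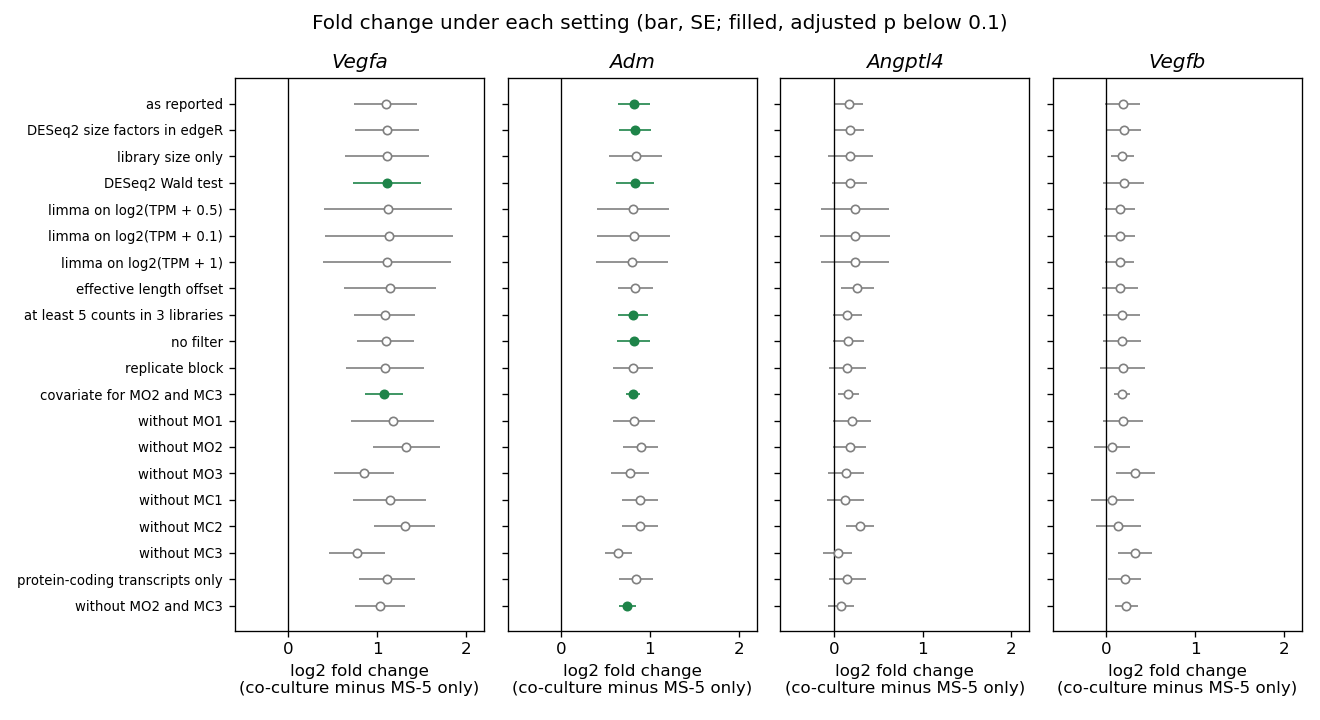
The log2 fold change of Vegfa, Adm, Angptl4 and Vegfb (co-culture minus MS-5 only) under each setting, with a bar of 1 SE on either side, filled where the adjusted p is below 0.1. Vegfa and Adm stay above 0 in each setting and Adm is filled in 7 of them, Vegfa in 2, while Angptl4 and Vegfb lie near 0.

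Of the adrenomedullin system, 3 of 7 listed genes were tested and 2 were called higher, Adm and Ackr3, beside 3.71% of all genes. Ackr3 is a scavenger receptor for Cxcl12 that also binds adrenomedullin. It had 2, 3 and 0 estimated counts without SKM-1 and 65, 48 and 42 with it. The groups were far apart, at 0 to 0.095 CPM and 1.22 to 1.99 CPM, with a log2 fold change of 4.71 (SE 0.73, edgeR adjusted p = 0.0734), a value that rests on a handful of MS-5 only counts. Ackr3 passed the filter on low counts only through the co-culture libraries, so its call describes the difference that let it be tested, and Adm is the other of the 2 calls. The call was lost without MO1, MO2, MO3 or MC1 (edgeR adjusted p from 0.111 to 0.300) and on protein-coding transcripts alone (0.115), and the MC2 excess was 1.25 times that of MC1 and MC3. Whether RNA of other cells took part was not tested. Calcrl, the receptor of adrenomedullin, was tested and not called, at 2.75, 5.03 and 4.40 CPM and then 3.02, 3.20 and 3.11 CPM. Its partners Ramp1, Ramp2 and Ramp3 had at most 24 counts and were not tested.

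None of the 9 tested angiogenesis inhibitors of 10 listed, and none of the 11 tested of 13 other angiogenic ligands, was called by edgeR. Their median log2 fold changes were -0.06 and 0.39, against -0.02 over all genes tested. DESeq2 called 1 inhibitor higher, and 1 other ligand higher and 1 lower. With the covariate for MO2 and MC3, the 6 vascular lists held 13 calls beside the members, 9 higher and 4 lower, with Ackr3 among them, in a fit where 13.9% of all genes were called higher and 16.4% lower.

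A list of 25 genes that hypoxia-inducible factors are known to raise was set beside the vascular factors. Of these, 23 were tested, 11 were called higher and none lower, with a median log2 fold change of 1.09, beside 0.12 for the 8 members tested. These shares stand beside 3.71% called higher over all genes, and the list was written with earlier results of these data known. Of the 8 members tested, only Vegfa, Adm, Angptl4 and Flt1 were named above as known targets of these factors. Pdk1, which limits the entry of pyruvate into mitochondria, had a log2 fold change of 2.19 (SE 0.15, edgeR adjusted p = 0.0269), at 27.2 to 32.1 CPM and then 116 to 148 CPM. Bnip3, a mitophagy receptor, had one of 2.68 (SE 0.19, edgeR adjusted p = 0.0269), at 23.3 to 33.9 CPM and then 176 to 214 CPM. The glucose transporter Slc2a1 (1.42), the collagen prolyl hydroxylase P4ha1 (1.33), the transcriptional repressor Mxi1 (1.40) and Ddit4, an inhibitor of mTORC1 (1.07), were also called, with edgeR adjusted p-values of 0.0734 each. Ankrd37 (2.14) and the lipoprotein receptor Vldlr (5.49) followed at 0.0752 and 0.0747, and Vldlr, which passed the filter only through co-culture, was highest in MC2 (4.94 CPM, against 0.885 and 1.43 in MC1 and MC3). The number called was 0 when MO1, MO2 or MO3 was left out, 6 without MC1, 7 without MC2 and 13 without MC3, and 2 on protein-coding transcripts alone.

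**Figure D4:**
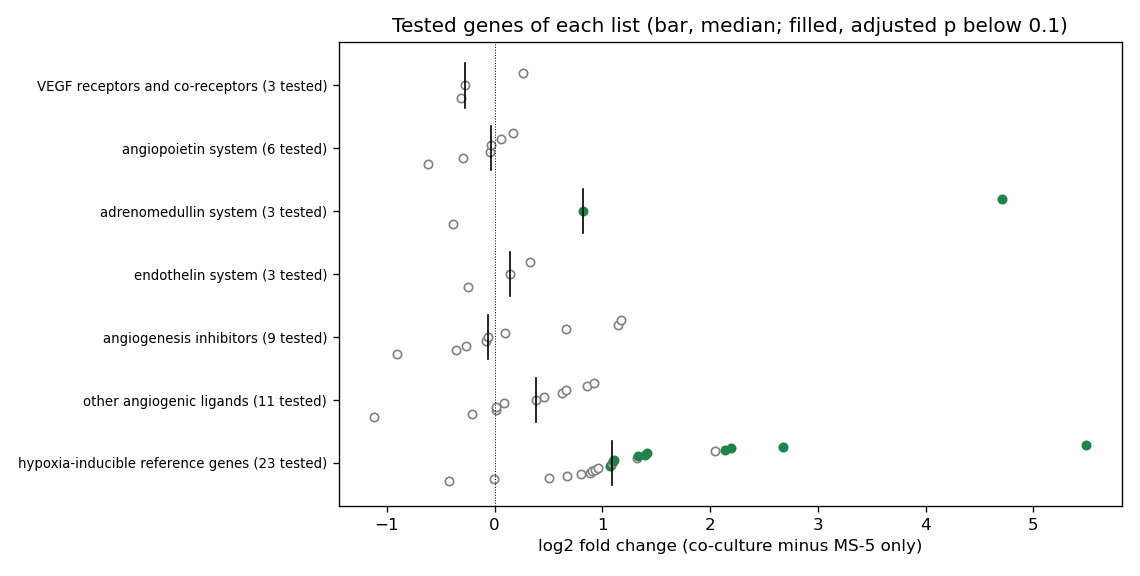
Each point is a tested gene of the list named at the left, placed by its log2 fold change (co-culture minus MS-5 only), with the median as a bar and filled where the adjusted p is below 0.1. The reference genes of hypoxia have a median of 1.09 and 11 filled points, while the other lists hold 2 filled points, Adm and Ackr3.

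Among the genes most like Vegfa across the 6 libraries, out of 9020 tested genes with a mean of at least 10 CPM outside the lists, were Zswim4 (Pearson r of 0.998 on log2 CPM), Foxp4 (0.994), Dtx4 (0.992), Ugcg (0.988) and N4bp1 (0.986). Zswim4 was at 12.8, 14.1 and 8.57 CPM in MO1, MO2 and MO3 and at 20.4, 15.5 and 26.1 CPM in MC1, MC2 and MC3, with MO3 its lowest library and MC3 its highest, as for Vegfa. Its log2 fold change was 0.81 (SE 0.27, edgeR adjusted p = 0.225). The log2 fold changes of these 5 genes ranged from 0.19 to 0.83, and none of the 5 was called by edgeR in the reported fit. Ugcg was called by DESeq2 (adjusted p = 0.0832) and by edgeR without MO2 and MC3 (0.0790), and 4 of the 5, all but N4bp1, by edgeR with the covariate for MO2 and MC3 (0.0138 to 0.0988).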

How the data were processed

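RNA-seq of 3 libraries of MS-5 alone and 3 of MS-5 from co-culture was used, with groups from the sample labels. Per the labels and methods, the authors checked reads with FastQC 0.11.7 and quantified stranded mRNA libraries with Kallisto 0.43.0 against a mouse cDNA index of GRCm38; sleuth 0.30.0, also named in the submitters' processing notes, was not used here. The deposited values are an estimated count per transcript, not normalized, its TPM, scaled by the authors by effective length to the same total in each library, and the deposited length and effective length in bases. No human transcript was in the index. Of 118489 transcripts, 116728 matched GENCODE M21 (GRCm38), whose coordinates are given, and 1761 were left out.

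Estimated counts were summed per gene, rounded, filtered with filterByExpr and normalized by TMM (factors 0.923 to 1.17). Groups were compared with edgeR 4.0.16 (quasi-likelihood, R 4.3.3), Benjamini-Hochberg adjustment over 13221 genes and a threshold of 0.1. Each SE was obtained as the size of the log2 fold change over the root of its F statistic. Shares were compared by exact permutation. The tests were tried on simulated counts. The labels do not say that libraries came from separate cultures, so p-values measure the spread between these libraries, which may be technical.

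Named genes are the 10 members, every VEGF receptor, up to 8 called genes per list by adjusted p, and the 6 genes most correlated with Vegfa; named transcripts hold at least 5% of Vegfa TPM in a library. Others, such as Ednra, Ednrb, Calcrl, the Ramp genes and the shares of Vegfa-201 and Vegfa-207, were named after their values were seen. Some results are not reported here. The members and lists were chosen with earlier results of these data known. Alternatives were DESeq2 1.42.0 (size factors, or the Wald test), library size, limma 3.58.1 on log2(TPM + 0.5), with 0.1 and 1 as other pseudocounts, an effective length offset, 5 counts in 3 libraries or no filter, a replicate block, a term for MO2 and MC3 against the rest, leaving out each library, and thresholds of 0.05 and 0.01. Leaving out MO2 and MC3 together and counting protein-coding transcripts only were added after seeing the data. The term for MO2 and MC3 also rests on how these libraries stood apart in the same data.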

Additional observations from a re-analysis of the deposited data

How the results depend on the processing

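The count of members past the threshold was 1 in the reported fit. It was 0 with library size in place of TMM, limma with each of 3 pseudocounts, the effective length offset and protein-coding transcripts only. It was also 0 at a threshold of 0.05 or 0.01 and with each library left out (0 to 0). It was 2 with DESeq2 (6.9% of all genes called higher and 2.72% lower) and with the covariate for MO2 and MC3 (13.9% and 16.4%). Where no share of all genes stands beside a count in this section, the count is not a result about the genes in it. The count over the 6 vascular lists beside the members, 1 as reported, was 4 with DESeq2, 2 with limma at each pseudocount, 2 with the effective length offset and 2 with no filter, 13 with the covariate, 7 without MO2 and MC3 (8.33% of all genes called higher and 4.71% lower), and 0 on protein-coding transcripts only and at thresholds of 0.05 and 0.01, and 0 to 1 with a library left out. The hypoxia list, with 11 calls, had 18 with DESeq2, 21 with the covariate, 20 without MO2 and MC3, 2 on protein-coding transcripts and at a threshold of 0.05, 0 at 0.01, and 0 to 13 with a library left out. Deviations of same-numbered libraries correlated at 0.53, -0.29 and -0.52, and those of MO2 and MC3 at 0.73. Same-numbered libraries thus did not all deviate together, but these values cannot show whether the cultures were paired. In the fit with a replicate block, the counts were 0 members (Adm at an edgeR adjusted p of 0.262), 2 list genes and 7 hypoxia genes, and the differences in share were 2.36 points for Vegfa-202 (exact permutation p = 1) and 16.2 points for Vegfa in the ligand pool (exact permutation p = 0.5, where the block cannot go below 0.25).

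With a library left out, the difference in the Vegfa-202 share ranged from -3.22 to 7.83 points and that of Vegfa in the ligand pool from 6.52 to 23.6 points. The log2 fold change of Vegfc ranged from -0.14 to 0.067, that of Angpt2 from -0.15 to 0.36 and that of Flt1 from -0.78 to 0.22. Vegfc turned positive without MO1 or MC3 and Flt1 without MC1, and Angpt2 turned negative without MO2. Without both MO2 and MC3, Vegfc was at 0.035 and Angpt2 at -0.13. Vegfa and Adm kept their direction in each alternative fit. The causes of these shifts were not tested. Leaving out a library also leaves 2 in its group. At this depth, Pgf, Edn1, Flt1 and Angpt2 are set by few counts, and with 3 libraries a group the spread of Vegfa limits its test.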

Other observations

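Much of the TPM of Angptl4 and Angpt2 lay in transcripts that are not annotated as protein-coding. Angptl4-202, annotated for nonsense-mediated decay, held 74.9%, 70.4% and 79.0% of Angptl4 TPM in MO1, MO2 and MO3 and 77.8%, 70.3% and 61.5% in MC1, MC2 and MC3. The protein-coding Angptl4-201, of 3308 bases, held 17.4% to 22.7% in the 6 libraries. Angpt2-202, a processed transcript of 652 bases, held 69.2% to 74.0% of Angpt2 TPM, and the protein-coding Angpt2-201 the rest, but of the estimated counts Angpt2-201 held 72.0% to 76.7% and Angpt2-202 only 23.3% to 28.0%. Of the Angptl4 counts, Angptl4-202 held 61.4% to 68.0%. The summed level of Angptl4 ranged from 27.4 to 69.1 TPM. For Vegfb, both transcripts with a large share are protein-coding, Vegfb-201 with 49.7% to 62.6% of TPM and Vegfb-202 with 37.2% to 46.1%. Adm-201 held 92.1% to 99.1% of Adm TPM, and the retained-intron transcript Adm-202 was highest in MO2 and MC3, at 7.48% and 7.85%, against 0.864% to 3.87% in the others.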
